A study of Mus musculus with 2 samples.

Results

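Pyruvate oxidation, the tricarboxylic acid (TCA) cycle and glutaminolysis were followed through 31 named genes in mouse CD8 T cells that had, or had not, been stimulated in the presence of a glucocorticoid. The members were listed by gene symbol. All probes whose transcript accession belongs to one of these symbols in RefSeq were taken, which gave 47 probes, and all 31 genes were measured on both arrays, of 23462 genes with a named probe and 12900 measured on both arrays.

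The cells were naive splenic CD8 T cells of C57BL/6 mice. They were activated for 2 days on plates coated with 3 µg/ml anti-TCRβ and 1 µg/ml anti-CD28 antibody, in medium with 10 ng/ml interleukin-2. One sample received prednisolone, a synthetic glucocorticoid, at 1 µM and the other received vehicle. Both were then moved to a new plate with interleukin-2 for 3 days, and RNA was taken on day 5. Addition of the drug is described for the stimulation only, and the labels do not say how many mice each sample came from. There was 1 array per condition, so no difference was tested between cultures, and the spread between cultures is unknown.

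Pyruvate made by glycolysis enters mitochondria through the mitochondrial pyruvate carrier. There it is oxidised to acetyl-CoA by the pyruvate dehydrogenase complex, or carboxylated to oxaloacetate by pyruvate carboxylase. The TCA cycle condenses both products to citrate and returns to oxaloacetate, with release of CO2 and transfer of electrons to NADH and to succinate dehydrogenase. Glutamine can also feed the cycle, after conversion to glutamate by glutaminase and then to oxoglutarate by glutamate dehydrogenase or a transaminase. Activated T cells are known to raise both glucose and glutamine use, and naive and memory T cells are known to rely more on mitochondrial oxidation.

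All 7 markers of CD8 T cells were well above background on both arrays, with Cd8a at a log2 difference of −0.01 ± 0.14. The receptor subunit genes Cd3g (−0.87 ± 0.20), Cd3d (−0.61 ± 0.14) and Cd3e (−0.53 ± 0.14) lay below 0. The glucocorticoid-induced genes Fkbp5 (2.57 ± 0.14) and Tsc22d3 (1.45 ± 0.14) were higher with prednisolone. Of the defining markers of other cells, Cd40lg, Cd79a, Ms4a1, Ncr1, Lyz2, Adgre1, Itgax, Ppbp and Pf4 were well above background on neither array. Of the same lists, Itgam, Csf1r, Cd4, Foxp3 and Klrb1c were well above background on both arrays. Itgam had 3459 with prednisolone and 3166 with vehicle, and Csf1r 292.6 with prednisolone and 354.8 with vehicle. Cd4 had 655.8 with prednisolone and 640.5 with vehicle, and Foxp3 53.8 with prednisolone and 93.8 with vehicle. Summed signals of the 6 myeloid and dendritic cell markers, most of them from Itgam, were 3984 with prednisolone and 4581 with vehicle. Those of the 3 CD4 T cell markers were 718.7 with prednisolone and 738.9 with vehicle, and those of the 2 NK cell markers 26.0 with prednisolone and 25.9 with vehicle. Of the B cell markers, Cd79b had 1623 with prednisolone and 1063 with vehicle, and Pax5 13.2 with prednisolone and 14.5 with vehicle. Of the erythroid markers, Hba-a1 had 1408 with prednisolone and 93.3 with vehicle on its brightest probe and was 15.7-fold higher, and the macrophage-associated gene Cd68 was 5.41-fold lower. The part of these cells or transcripts in the results below was not tested.

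A signal is the processed intensity of a spot. A difference is prednisolone minus vehicle on the log2 scale, after each array was set relative to its 75th percentile, and ± is the error that the scanner software assigns to the spots of the 2 arrays. In bulk RNA, fewer cells of a type and less RNA per cell cannot be told apart.

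Most members differed little between the cultures, and the shares past 1.5-fold were no higher than among all genes. Of the 31 members, 3 were at least 1.5-fold higher with prednisolone, namely the pyruvate carboxylase gene Pcx, the pyruvate dehydrogenase component gene Pdhx and the isocitrate dehydrogenase subunit gene Idh3a. Among all measured genes the share at least 1.5-fold higher was 14.5%. The members at least 1.5-fold lower were 2, the glutaminase gene Gls2 and the cytosolic isocitrate dehydrogenase gene Idh1, against 15.3% of all measured genes. At 2-fold, Pcx was higher (5.84% of all measured genes) and Gls2 was lower (6.73% of all measured genes). The other 26 members (83.9%) lay within 1.5-fold, as did 70.2% of all measured genes.

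The median difference of the members was 0.10, and that of all measured genes was 0.00. The SD of the difference was 0.48 over the members and 0.73 over all measured genes. Most members had a signal above the 75th percentile of the spots on each array. All measured genes, used here and above for comparison, were not matched to the members for signal. For 17 of 31 members the difference was larger than its software error, as it was for 69.6% of all measured genes. For 9 members it was larger than 2 such errors, 5 of them higher and 4 lower with prednisolone, as it was in either direction for 47% of all measured genes. The error of a member was 0.20 at the median and ran from 0.12 to 0.24. Spots of one probe agreed more closely than that: the difference had a median SD of 0.028 among 276 probes printed 10 times.

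**Figure D1:**
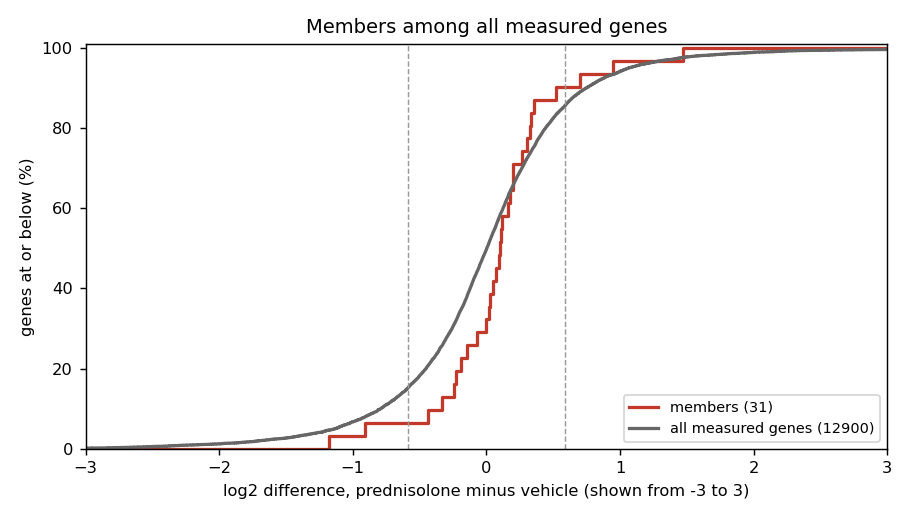
Cumulative share of genes (%, vertical axis) at or below each log2 difference, prednisolone minus vehicle (horizontal axis), for the 31 members and for the 12900 measured genes. Dashed lines mark 1.5-fold. The curve of the members is steeper in the middle, with 83.9% of the members and 70.2% of all measured genes between the lines.

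The probe signals of every member are given in the plot of signals by array. None of the 47 probes was saturated and none of their spots was an outlier itself. The local background of 7 probes was an outlier on at least 1 array, in Pcx, Sdhb, Sdhd, Mdh2, Mpc2 and Glud1, and these probes were kept. Probes were 45 well above background on both arrays, and 2 on the vehicle array only.

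**Figure D2:**
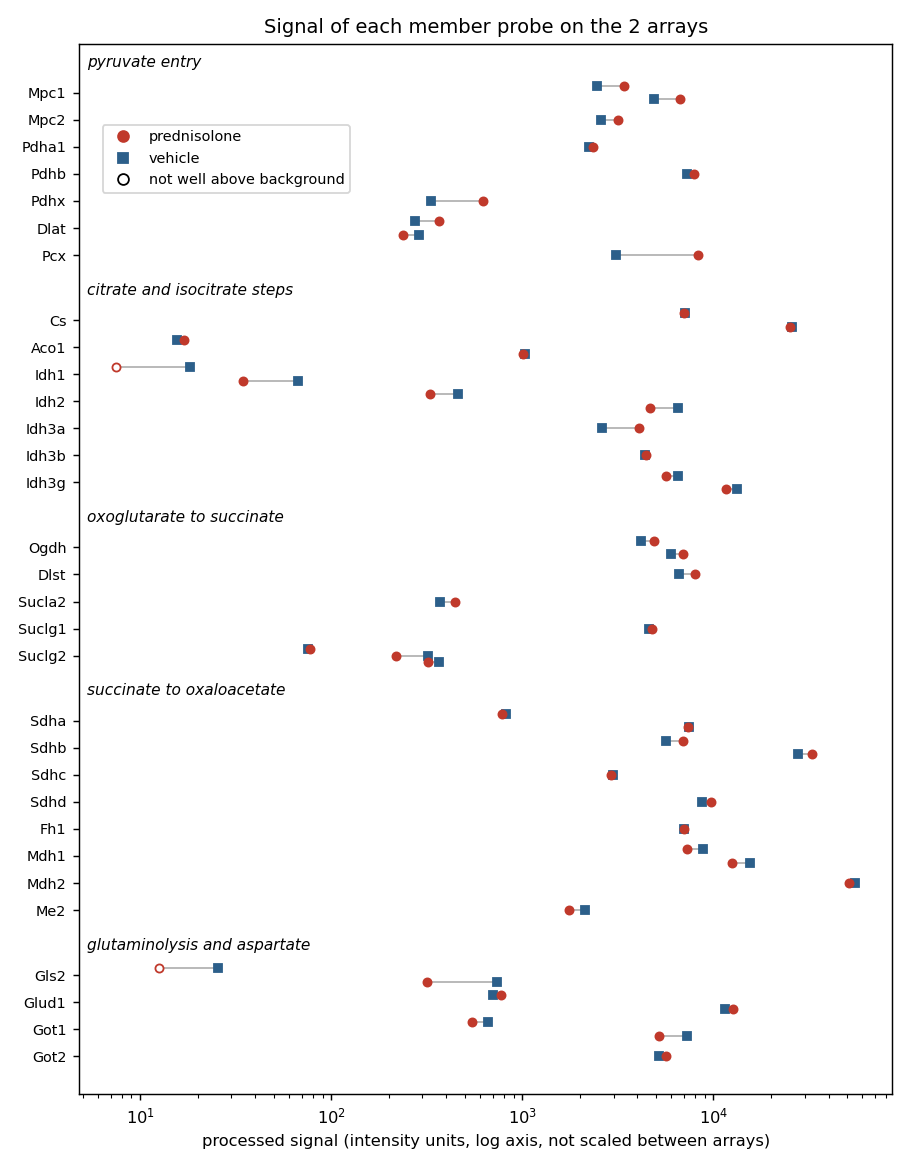
Processed signal (intensity units, log axis, not scaled between arrays) of each of the 47 member probes with prednisolone (circles) and vehicle (squares), joined by a line and grouped by role. Open symbols are not well above background, which was the case for 1 probe each of Idh1 and Gls2 with prednisolone. The widest gaps are those of Pcx, Pdhx, Idh3a, Idh1 and Gls2.

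Pyruvate entry was the role whose members lay farthest above vehicle, with a median difference of 0.36 over 7 genes. All 7 were above 0, as were 67.7% of the 31 members and 50.2% of all measured genes. The members were chosen with earlier results of these data known, so these shares describe the chosen genes only. The differences of Pdha1, Pdhb and Dlat were not larger than their software error. All 7 stayed above 0 in each of the 11 alternative settings that gave them a value. Under spike-in scaling, 1 of these, the median of all measured genes was itself 0.24. Pcx encodes pyruvate carboxylase, the mitochondrial enzyme that refills the oxaloacetate of the cycle. Its probe had a signal of 8254 with prednisolone and 3076 with vehicle. It was 2.78-fold higher (1.47 ± 0.20), above 97.7% of all measured genes. The local background of this spot was an outlier on both arrays. It was 34 intensity units with prednisolone and 34 with vehicle. Pcx has 1 probe here, so no second probe checks the value, and it drops out when such spots are left out.

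RefSeq (GRCm38.p6) gives 2 start sites of Pcx on the plus strand of chromosome 19, and the promoter of each is shown because this member stood farthest apart. The windows run from 250 bases before the start to 50 after it, at chr19:4510222-4510521 and chr19:4594069-4594368. Capitals mark matches on either strand to the motifs listed below.
Pcx start site 1: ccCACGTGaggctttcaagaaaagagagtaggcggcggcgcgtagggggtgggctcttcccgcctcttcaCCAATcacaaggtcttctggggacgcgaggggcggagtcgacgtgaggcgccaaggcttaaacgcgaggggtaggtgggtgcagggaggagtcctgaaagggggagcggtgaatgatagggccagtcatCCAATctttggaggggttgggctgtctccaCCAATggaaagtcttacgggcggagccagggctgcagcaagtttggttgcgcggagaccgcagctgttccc
Pcx start site 2: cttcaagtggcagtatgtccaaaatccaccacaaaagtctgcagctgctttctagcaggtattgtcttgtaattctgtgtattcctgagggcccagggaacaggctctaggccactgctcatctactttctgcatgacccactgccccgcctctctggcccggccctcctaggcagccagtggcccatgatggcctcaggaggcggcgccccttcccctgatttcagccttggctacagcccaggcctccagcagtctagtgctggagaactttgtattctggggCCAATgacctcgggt
The first window holds an E-box and 3 CCAAT boxes, and the second 1 CCAAT box. The array does not tell which start site the signal came from.

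Pdhx encodes component X of the pyruvate dehydrogenase complex, which anchors a further component of the complex to its core. The signal was 618.8 with prednisolone and 331.9 with vehicle, which is 1.93-fold higher (0.95 ± 0.20), above 93.4% of all measured genes. The other subunit genes of the complex among the members differed less. Pdha1, the gene of the catalytic E1 α subunit, had 2335 with prednisolone and 2238 with vehicle (0.11 ± 0.20), and Pdhb, of the E1 β subunit, had 7896 with prednisolone and 7298 with vehicle (0.16 ± 0.20). Neither difference was larger than its error. Dlat, which encodes the acetyltransferase core, has probes that disagreed: one had 367.3 with prednisolone and 275.0 with vehicle (0.47), the other 236.6 with prednisolone and 287.4 with vehicle (−0.23). The difference of Pdhx exceeded that of Dlat by 0.83 ± 0.25.

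The RefSeq promoter of Pdhx (GRCm38.p6, chr2:103073464-103073763, minus strand) is given for comparison with those of Pcx, with the same use of capitals.
Pdhx: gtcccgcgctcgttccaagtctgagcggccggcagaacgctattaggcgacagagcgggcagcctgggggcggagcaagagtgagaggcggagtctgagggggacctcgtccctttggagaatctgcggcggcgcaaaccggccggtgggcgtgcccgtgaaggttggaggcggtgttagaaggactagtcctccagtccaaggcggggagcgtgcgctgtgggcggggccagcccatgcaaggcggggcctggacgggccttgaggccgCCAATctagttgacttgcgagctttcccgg
It holds 1 CCAAT box, downstream of the start.

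Mpc1 and Mpc2 encode the subunits of the mitochondrial pyruvate carrier. The 2 probes of Mpc1 had 3421 and 6683 with prednisolone and 2444 and 4872 with vehicle, for a difference of 0.52 ± 0.14, and they differed from each other by 0.029. Mpc2 had 3175 with prednisolone and 2564 with vehicle (0.36 ± 0.20). Both subunits were thus above vehicle by less than 1.5-fold, and both passed 1.5-fold under spike-in scaling (0.76 and 0.60).

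Kinases switch pyruvate dehydrogenase off and phosphatases switch it on. The measured kinase genes lay below 0, and the phosphatase genes lay on both sides of 0. Pdk1, a pyruvate dehydrogenase kinase gene, had a mean signal over 4 probes of 558.8 with prednisolone and 1245 with vehicle and was 2.15-fold lower (−1.11 ± 0.10). Its probes ranged from −1.72 to −0.22. The difference was short of 2-fold without outlier-flagged spots (−0.90), under spike-in scaling (−0.87) and after normexp background correction (−0.98). Pdk2 (−0.53 ± 0.24) and Pdk3 (−0.28 ± 0.20) lay below 0 within 1.5-fold, and neither array had Pdk4 well above background. The phosphatase gene Pdp1 was 0.56 ± 0.15, while Pdp2 was −0.19 ± 0.14, or 0.05 under spike-in scaling. Pdpr, which encodes the regulatory subunit of the phosphatase, was 0.45 ± 0.20 from 1 probe. Its second probe had 6.46 with prednisolone and 36.5 with vehicle and was at least 3.003-fold lower, so the probes of Pdpr disagree in direction.

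Lipoate is the cofactor on the swinging arms of the pyruvate and oxoglutarate dehydrogenase complexes. Of 5 genes for its synthesis and transfer, 2 passed 1.5-fold on the higher side (14.5% of all measured genes) and 0 on the lower side (15.3% of all measured genes). These 5 genes were chosen with earlier results of these data known, so the counts describe the chosen genes only. Lipt2, which encodes the octanoyl transferase that starts lipoate assembly, had 308.6 with prednisolone and 106.8 with vehicle and was 2.99-fold higher (1.58 ± 0.21). Lipt2 has 1 probe here, and its difference was 1.15 after normexp. Mecr, an enoyl reductase gene of mitochondrial fatty acid synthesis, was 2.04-fold higher (1.03 ± 0.10), with all 4 probes between 0.92 and 1.09, and it fell short of 2-fold after normexp (0.88), on its brightest probe (0.92) and without scaling (0.98). The lipoate synthase gene Lias was 0.49 ± 0.15, Mcat 0.35 ± 0.14 and Lipt1 −0.28 ± 0.21.

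**Figure D3:**
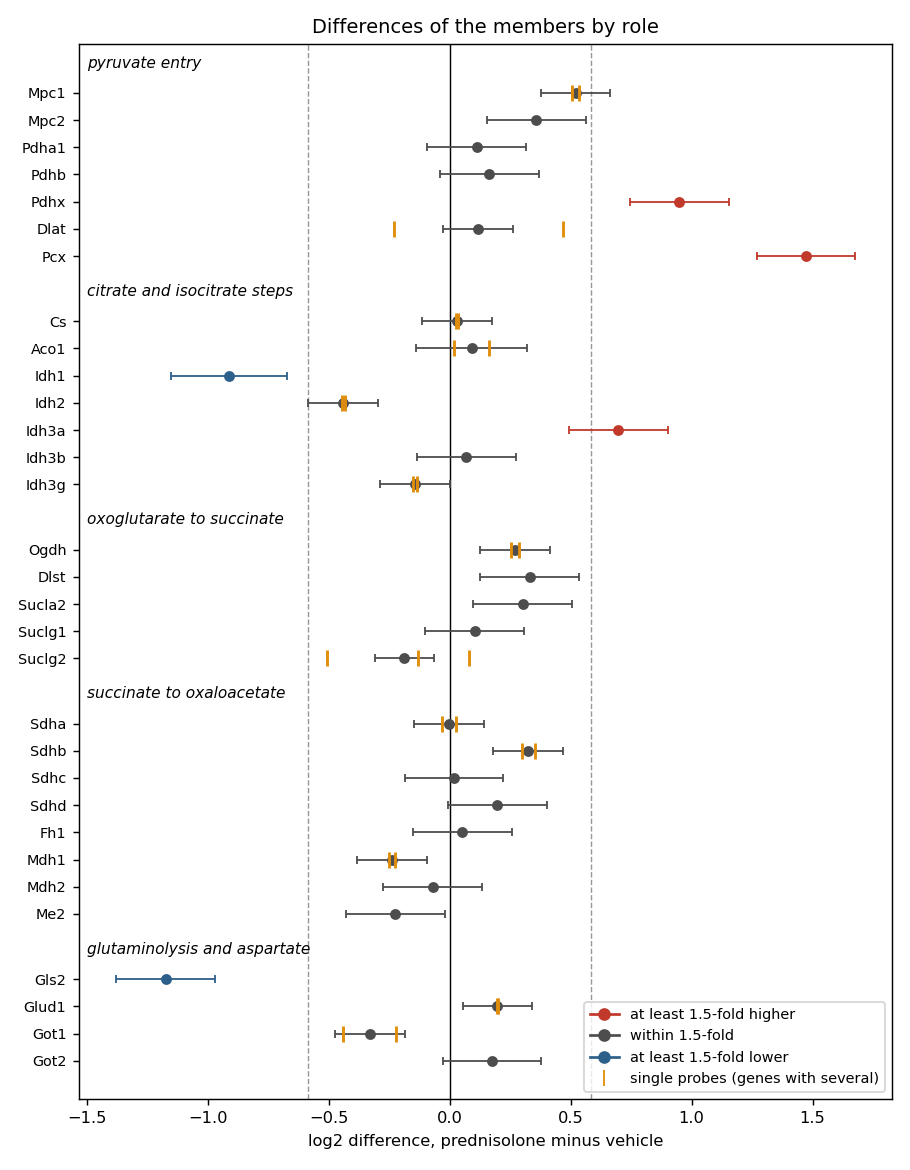
Log2 difference, prednisolone minus vehicle (horizontal axis), of each member by role. Points are genes, bars the scanner software's error and orange ticks single probes where a gene has several, and dashed lines mark 1.5-fold. Pcx, Pdhx and Idh3a lie right of the dashed lines, Idh1 and Gls2 left of them, and the probes of Dlat and Suclg2 lie on both sides of 0, as do those of Sdha by less than the error.

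At the citrate and isocitrate steps the isocitrate dehydrogenases differed in direction. Idh3a encodes the catalytic subunit of the NAD-dependent mitochondrial enzyme, the one that turns in the cycle. Its signal was 4079 with prednisolone and 2603 with vehicle, 1.62-fold higher (0.70 ± 0.20). The other subunits of the same enzyme were nearer to 0. Idh3b had 4437 with prednisolone and 4377 with vehicle (0.07 ± 0.20, or −0.01 after quantile normalization). The probes of Idh3g had 11626 and 5664 with prednisolone and 13221 and 6505 with vehicle (−0.14 ± 0.14, or 0.10 under spike-in scaling). Idh3a exceeded Idh3g by 0.84 ± 0.25 and Idh3b by 0.63 ± 0.29, and these gaps do not depend on a scaling factor of the arrays.

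The NADP-dependent isocitrate dehydrogenases were both lower. Idh2, which encodes the mitochondrial one, had 327.1 and 4679 on its probes with prednisolone and 461.2 and 6547 with vehicle, a difference of −0.44 ± 0.14 with probes at −0.45 and −0.43. Idh3a exceeded Idh2 by 1.14 ± 0.25. Idh1, of the cytosolic and peroxisomal enzyme, was dim, with 34.4 with prednisolone and 67.0 with vehicle on the probe used, 1.88-fold lower (−0.91 ± 0.24). Its second probe had 7.48 with prednisolone, not well above background, and 18.2 with vehicle, at least 1.495-fold lower. Both probes lay the same way. The difference of Idh1 was −0.35 after normexp background correction, so its size rests on how the background is removed.

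RefSeq gives 2 start sites of Idh1 on the minus strand of chromosome 1 (GRCm38.p6, chr1:65186430-65186729 and chr1:65179093-65179392), shown as the promoters of a member on the low side beside those of Pcx and Pdhx.
Idh1 start site 1: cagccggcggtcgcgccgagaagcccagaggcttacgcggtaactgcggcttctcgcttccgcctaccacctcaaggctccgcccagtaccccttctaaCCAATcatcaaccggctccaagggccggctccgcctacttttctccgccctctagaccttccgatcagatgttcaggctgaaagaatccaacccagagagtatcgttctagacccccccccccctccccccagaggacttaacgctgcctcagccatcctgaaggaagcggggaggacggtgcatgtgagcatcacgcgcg
Idh1 start site 2: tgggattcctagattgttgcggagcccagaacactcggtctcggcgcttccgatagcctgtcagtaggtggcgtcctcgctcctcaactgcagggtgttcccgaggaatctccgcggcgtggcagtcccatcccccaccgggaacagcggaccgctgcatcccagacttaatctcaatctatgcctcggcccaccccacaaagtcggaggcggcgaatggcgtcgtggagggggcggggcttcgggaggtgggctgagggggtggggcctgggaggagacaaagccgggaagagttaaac
The first window holds 1 CCAAT box and the second none of the motifs searched.

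Citrate synthase and the cytosolic aconitase did not stand apart. Cs, which encodes the enzyme that starts the cycle, had 7043 and 25280 with prednisolone and 7123 and 25706 with vehicle (0.03 ± 0.14, or −0.02 without scaling). Aco1, of the cytosolic aconitase that also acts as an iron-regulatory protein, had 1005 and 16.9 with prednisolone and 1027 and 15.6 with vehicle (0.09 ± 0.23).

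From oxoglutarate to succinate, 4 of 5 genes lay above 0 (67.7% of the 31 members and 50.2% of all measured genes), with a median of 0.27. None was 1.5-fold apart, and 70.2% of all measured genes lay within 1.5-fold. Ogdh, the E1 component of oxoglutarate dehydrogenase, had 6906 and 4896 with prednisolone and 5996 and 4155 with vehicle (0.27 ± 0.14). Dlst, its succinyltransferase core, had 8045 with prednisolone and 6619 with vehicle (0.33 ± 0.20). Both were larger than their error but smaller than 2 errors. Succinyl-CoA ligase pairs a common α subunit with an ADP-forming or a GDP-forming β subunit. The α subunit gene Suclg1 had 4752 with prednisolone and 4581 with vehicle (0.10 ± 0.20). The ADP-forming subunit gene Sucla2 had 442.7 with prednisolone and 372.0 with vehicle (0.30 ± 0.20), and the GDP-forming subunit gene Suclg2 was −0.19 ± 0.12, or 0.05 under spike-in scaling. The 3 probes of Suclg2 ran from −0.51 to 0.08. Sucla2 exceeded Suclg2 by 0.49 ± 0.24.

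From succinate to oxaloacetate the 8 members lay closest to 0, with a median of 0.01 and values from −0.24 to 0.33. Succinate dehydrogenase is both an enzyme of the cycle and complex II of the respiratory chain. Its iron-sulphur subunit gene Sdhb had 6956 and 32922 with prednisolone and 5637 and 27732 with vehicle (0.33 ± 0.14). The flavoprotein subunit gene Sdha had 778.8 and 7339 with prednisolone and 824.1 and 7456 with vehicle (0.00 ± 0.14, with probes at −0.03 and 0.03 and a sign that changes with the scaling and the probe). The membrane anchor genes were Sdhc, with 2915 with prednisolone and 2981 with vehicle (0.02 ± 0.20, or −0.04 after quantile normalization), and Sdhd, with 9700 with prednisolone and 8755 with vehicle (0.20 ± 0.20). Sdhb was thus the subunit farthest from 0, above Sdha by 0.33 ± 0.20.

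The assembly factors of the same complex lay on both sides of 0. Sdhaf1 was 1.51-fold higher (0.60 ± 0.20). It fell short of 1.5-fold after normexp (0.50), after quantile normalization (0.57) and without scaling (0.55). Sdhaf4 had 652.5 with prednisolone and 1148 with vehicle and was 1.70-fold lower (−0.76 ± 0.20), or −0.53 under spike-in scaling. Sdhaf2 (0.19 ± 0.14) and Sdhaf3 (−0.57 ± 0.22) were within 1.5-fold. Without scaling Sdhaf3 passed 1.5-fold on the lower side (−0.62), and after normexp it was −0.25.

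Fumarase and the malate dehydrogenases complete the cycle. Fh1, the fumarase gene, had 7044 with prednisolone and 7033 with vehicle (0.05 ± 0.20, or −0.03 after quantile normalization). Mdh2, of the mitochondrial malate dehydrogenase, had 50903 with prednisolone and 55324 with vehicle (−0.07 ± 0.20, or 0.17 under spike-in scaling). Mdh1, of the cytosolic one, had 7233 and 12531 with prednisolone and 8766 and 15435 with vehicle (−0.24 ± 0.14, and 0.00 under spike-in scaling), with probes at −0.23 and −0.25. Me2, which encodes the mitochondrial malic enzyme that turns malate into pyruvate, had 1759 with prednisolone and 2127 with vehicle (−0.22 ± 0.20, or 0.01 under spike-in scaling). The differences of these 4 genes were all smaller than 2 errors.

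The cytosolic malic enzyme stood far from its mitochondrial relative. Me1 makes NADPH and pyruvate from malate outside mitochondria and is no member. Its probe used had 1182 with prednisolone and 74.0 with vehicle, 16.5-fold higher (4.05 ± 0.21), above 99.9% of all measured genes. On the second probe it had 358.4 with prednisolone and 10.7 with vehicle, not well above background, at least 28.9-fold higher. After normexp the difference of Me1 was 3.18. The gap between Me1 and Me2 was 4.27 ± 0.29.

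Glutaminolysis held the lowest member. Gls2 encodes the liver-type glutaminase, which releases glutamate from glutamine. Its signal was 315.3 with prednisolone and 737.0 with vehicle on the probe used, 2.26-fold lower (−1.18 ± 0.20), below all but 4.67% of measured genes. A second probe had 12.6 with prednisolone, not well above background, and 25.6 with vehicle, at least 1.97-fold lower. The difference of Gls2 was −0.94 under spike-in scaling, short of 2-fold. Glud1, the glutamate dehydrogenase gene, had 12696 and 775.3 with prednisolone and 11473 and 699.4 with vehicle (0.20 ± 0.14), with probes that differed by 0.0025.

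The aspartate transaminases exchange amino groups between glutamate and aspartate and carry the malate-aspartate shuttle. Got1, the cytosolic one, had 5171 and 547.5 with prednisolone and 7261 and 660.8 with vehicle (−0.33 ± 0.14), with probes at −0.44 and −0.22. Got2, the mitochondrial one, had 5667 with prednisolone and 5198 with vehicle (0.17 ± 0.20). Got1 lay below Got2 by 0.51 ± 0.25, and this gap does not depend on a scaling factor. Mdh1 lay below Mdh2 by 0.17 ± 0.25, less than the error. The shuttle's carriers were Slc25a11 for oxoglutarate at −0.53 ± 0.14, Slc25a12 at 0.03 ± 0.12 and Slc25a13 at −0.01 ± 0.20, the last 2 being aspartate-glutamate carriers whose sign changes between settings.

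The further genes listed as feeding, draining or supplying the cycle spread more widely than the members. These lists were chosen with earlier results of these data known, so their spread and shares describe the chosen genes only. Of 42 listed genes, 36 had a value. With prednisolone, 6 of these (16.7%) were higher by 1.5-fold or more, against 14.5% of all measured genes, and 8 (22.2%) were lower by as much, against 15.3%. At 2-fold, 3 were higher (Me1, Lipt2 and Mecr), against 5.84% of all measured genes, and 6 were lower, against 6.73%. Abat, a transaminase gene, was well above background with prednisolone alone and at least 1.87-fold higher. Their SD was 1.08, with a median of −0.03.

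Of the 8 genes listed for glutamine and glutamate uptake and use, 3 were lower by 1.5-fold or more (15.3% of all measured genes). On the higher side 1 passed 1.5-fold (14.5% of all measured genes). Gpt2, the mitochondrial alanine transaminase gene, had 83.9 with prednisolone and 424.7 with vehicle and was 4.89-fold lower (−2.29 ± 0.21), or −1.74 after normexp. Gpt, the cytosolic one, was 2.14-fold lower (−1.10 ± 0.14), with probes at −1.44 and −0.76, and −0.86 under spike-in scaling. Asns, the asparagine synthetase gene, was 3.49-fold lower (−1.80 ± 0.14), with probes at −1.84 and −1.77, and −1.64 after normexp. Glul, the glutamine synthetase gene, was 1.53-fold higher (0.61 ± 0.12) with probes from 0.41 to 0.97. It fell short of 1.5-fold after normexp (0.52), without scaling (0.56) and on the median of its probes (0.46). Within 1.5-fold, Aldh18a1, of proline synthesis from glutamate, lay below 0 (−0.51 ± 0.20), and the transporter genes Slc1a5 (0.32 ± 0.20), Slc38a1 (0.37 ± 0.12) and Slc38a2 (0.15 ± 0.20) lay above 0.

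Of the 7 measured genes listed as other enzymes that feed or drain the cycle, 2 were lower by 1.5-fold or more (15.3% of all measured genes). Only Me1 was higher by as much (14.5% of all measured genes). Pck2, the mitochondrial enzyme that draws phosphoenolpyruvate from oxaloacetate, was 3.31-fold lower (−1.73 ± 0.16), or −1.21 after normexp. Aldh5a1, of succinate semialdehyde oxidation, was −1.13 ± 0.25 but dim, and −0.35 after normexp. The citrate carrier gene Slc25a1 was 1.83-fold lower (−0.87 ± 0.14), and Slc25a10, a dicarboxylate carrier gene, was 1.70-fold higher (0.77 ± 0.22), or 0.36 after normexp. Acly, which splits the exported citrate, was −0.20 ± 0.15, or 0.04 under spike-in scaling.

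**Figure D4:**
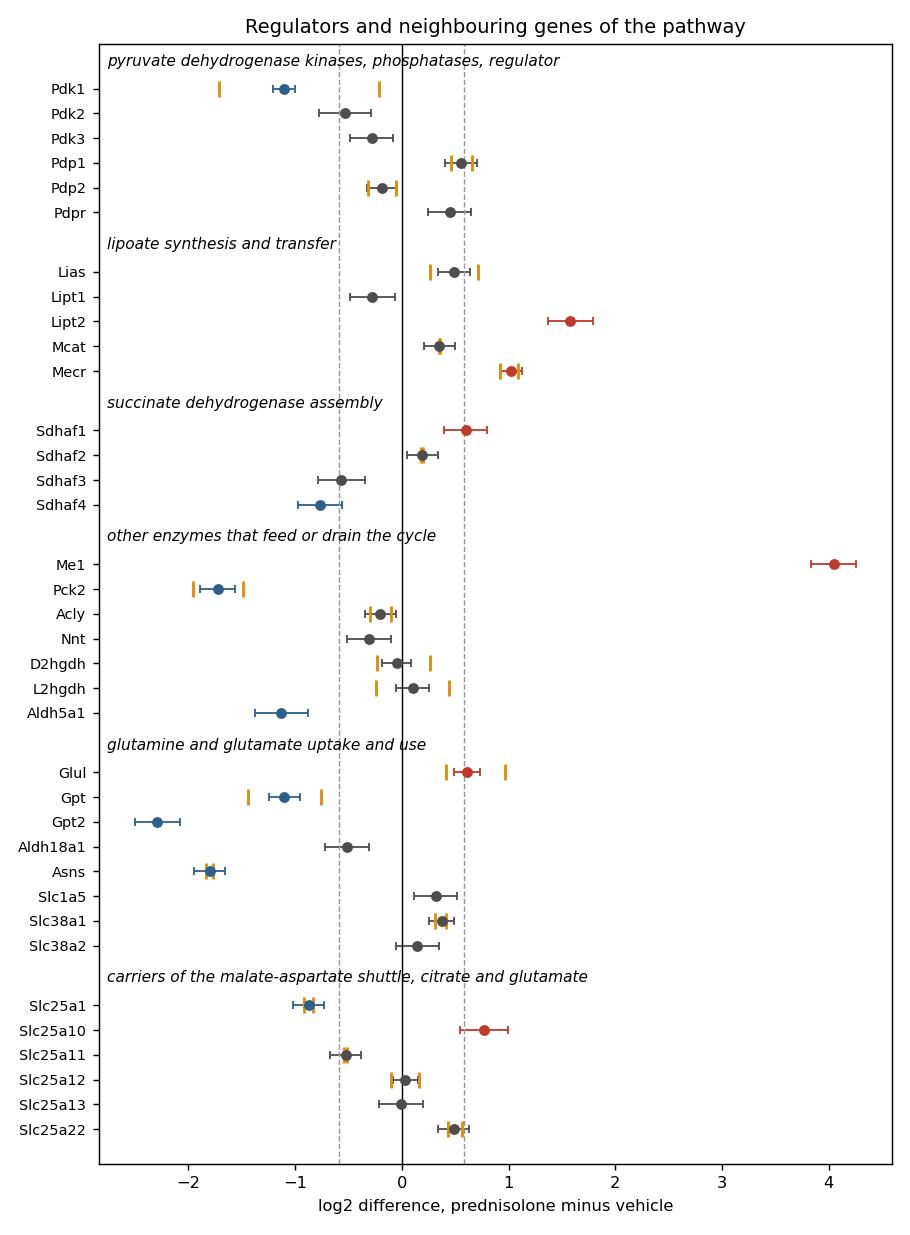
Log2 difference, prednisolone minus vehicle (horizontal axis), of the 36 measured regulators and neighbouring genes by list. Points are genes, bars the scanner software's error, orange ticks the lowest and highest probe of genes with several, and dashed lines mark 1.5-fold. Me1 lies farthest right at 4.05 and Gpt2 farthest left at −2.29.

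Promoter sequence was not used to choose the members. Of 31 members, 27 have a promoter in the RefSeq table, on both sides of 0 in difference. Their GC content had a median of 62.0% and ran from 50.3% to 81.0%, against a median of 52.8% over 27025 genes in the table, predicted and non-coding genes among them. At least 60% GC was found in 19 of the 27 members and in 28.8% of all genes. A CCAAT box (CCAAT, either strand) stood in 16 of 27 members (59.3%) and in 41.1% of all genes.

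The other motifs were rare in both. The E-box (CACGTG, its own reverse complement) was found in Ogdh and Pcx, 7.41% of the members against 8.09% of all genes. The nuclear respiratory factor 1 motif was in none of the members and in 1.07% of all genes, and the glucocorticoid response element in none of the members and in 0.54% of all genes. A motif of oestrogen-related receptors (TCAAGGTCA) was in Sdhd and in 0.47% of all genes. Both strands were searched and overlapping matches were allowed. Genes with several start sites have more chances to hold a match. The members lie on 17 chromosomes.

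Most members kept their sign across the processing settings. Of 31 members, 17 were above 0 and 5 below 0 in every setting that gave them a value, and 9 changed sign, with reported differences from −0.22 to 0.07. Me2, Suclg2 and Idh3g changed sign under spike-in scaling alone. Pcx, Pdhx and Idh3a were at least 1.5-fold higher, and Gls2 was lower by as much, in every such setting. Scaling on the spike-in probes moved the median of all measured genes to 0.24 and added 0.24 to each member, so that the distance of a member from the typical gene stayed as it was.

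**Figure D5:**
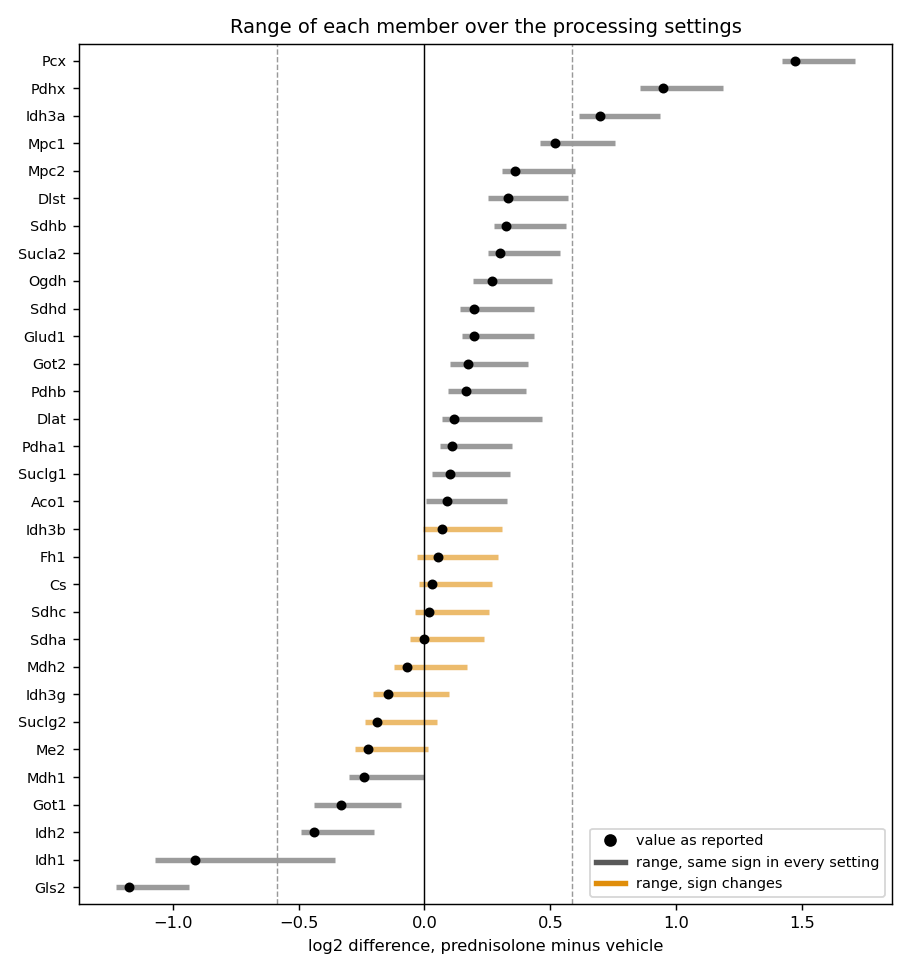
Range of the log2 difference, prednisolone minus vehicle (horizontal axis), of each member over the reported value (black point) and 11 alternative settings. Orange ranges cross 0, which holds for 9 members, and dashed lines mark 1.5-fold. Pcx, Pdhx and Idh3a stay right of the dashed lines, Gls2 stays left of them, and Idh1 reaches from −1.07 to −0.35.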

How the data were processed

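Each array is 1 colour (Cy3, from 100 ng of total RNA), 1 with prednisolone and 1 with vehicle. Per the file headers, the authors' deposited scanner files hold intensity values from Agilent Feature Extraction 12.0.3.1, among them a processed signal, already background-subtracted within the array, its error, and other flags and codes of the scanner software. The deposited value table of the series is the same intensity times 1 constant per array, 0.858 for prednisolone and 0.792 for vehicle. Its constants are unexplained in the sources used here.

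Probes were named through transcript accessions without version in RefSeq GRCm38.p6, which named 33767 probes and left 22838 unnamed. The headers name build mm9, so no probe coordinates are given. Each processed signal was divided by the 75th percentile of its array, taken over 59305 spots other than controls (386.9 with prednisolone, 400.4 with vehicle), and put on the log2 scale. Of these spots 53.5% were well above background on each array, and the number of arrays limits the precision. Spots of a probe were averaged, then the probes of a gene that were well above background on both arrays, with flagged spots kept. Where a probe was well above background on 1 array only, the dim array was given its own value or the lowest one called well above background there, whichever was higher, and the result is written "at least N-fold". The mean signal of a gene with several probes is the geometric mean.

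Thresholds were 1.5-fold and 2-fold, without a test. All members are named, and of the other lists every gene at least 1.5-fold apart and others for context. Members and lists were chosen with earlier results of these data known. Of the cell type markers, 2 are not reported here. The calculation was tested on simulated data. R 4.3.3 with limma 3.58.1 gave the normexp alternative, which used the median spot signal in place of the planned mean signal, and Python 3.11.15 with pandas 2.3.3 the rest. All per-sample columns could be tied to a sample.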

Additional observations from a re-analysis of the deposited data

How the results depend on the processing

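The 11 alternative settings were changed one at a time. The median difference of the members (0.10) was 0.34 under spike-in scaling and moved by less than the error of a member elsewhere. The members at least 1.5-fold higher (3) were 5 under spike-in scaling, with Mpc1 and Mpc2 added, where 25.1% of all measured genes were as much higher. They were 2 without outlier-flagged spots, where Pcx has no value. After normexp they stayed 3, while the share of all measured genes as much higher fell from 14.5% to 9.86%. The share as much lower fell there from 15.3% to 9.79%. Those at least 1.5-fold lower (2) were 1 after normexp and 1 with the stricter filter on dim probes, where Idh1 has no value. Those at least 2-fold higher (1) were 2 under spike-in scaling, with Pdhx added, and 0 without outlier-flagged spots, where Pcx, Sdhb, Sdhd, Mdh2 and Mpc2 have no value. Those at least 2-fold lower (1) were 0 under spike-in scaling and 2 without a filter on dim probes, where Idh1 was −1.07. Of 335 member values under these settings, 303 moved by less than their software error, 32 moved more, 30 of them under spike-in scaling, and none that was at least 1.5-fold apart changed sign. Spike-in scaling took the share of higher genes among all genes at least 2-fold apart to 70.3%, from 46.5%. The authors' value table gave the same counts as the scanner files. No replicate could be left out, and no paired analysis was possible because each condition has 1 array. Dim probes such as those of Idh1 (signals of 34.4 with prednisolone and 67.0 with vehicle, where the lowest signal well above background was 11.7 with prednisolone and 12.8 with vehicle) depend most on the background correction.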
